A study of Mus musculus with 4 samples.

Results

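The endoplasmic reticulum (ER) is where a cell folds the proteins that it secretes or places in its membranes. The 34 genes described here encode its folding machinery, and they were listed by symbol, out of the 53465 genes in the deposited table. By role they fall into 9 Hsp70 and Hsp90 chaperones with their cofactors, 2 lectin chaperones, 9 disulfide isomerases and oxidases, 10 genes of ER-associated degradation (ERAD) and of the ER membrane, and 4 genes of the translocon and of protein entry. A new polypeptide enters the ER lumen through the Sec61 channel, is held by the Hsp70 chaperone BiP and by the lectins calnexin and calreticulin, and receives its disulfide bonds from isomerases that the Ero1 oxidases recharge. Proteins that do not fold are sent back to the cytosol and degraded, which is ERAD. When unfolded proteins build up, the sensors IRE1, PERK and ATF6 raise the transcription of many of these genes, which is known as the unfolded protein response (UPR).

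The study examined N4-acetylcytidine, an RNA modification made by NAT10, in mouse female germline stem cells (FGSCs), a cultured line that the labels trace to the ovary. The shNC group carried a control shRNA and the shNAT10 group an shRNA directed at *Nat10*, both delivered by lentivirus and followed by drug selection, and each group held 2 libraries of Long RNA-seq. The sources used here tie no age, strain or time after infection to this line, although the methods place the mice of the study on a C57BL/6J background. The study calls the libraries biological replicates without saying whether the cultures were independent, so the p-values measure the spread between these libraries only. The methods describe rRNA depletion and the labels describe mRNA isolation, and which of these applies is not settled. The question asked here was how the ER folding genes differed between shNAT10 and shNC. All levels are FPKM as deposited by the authors, fragments scaled to exon length and to a size factor per library that does not follow its fragment total. Median-ratio factors computed from these values were 1 for each library. Each fold change is the mean of log2(FPKM + 0.1) in shNAT10 minus that in shNC, with its standard error from limma, and every adjusted p is from limma with Benjamini-Hochberg correction over all genes tested.

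The values corresponded to 11057922 to 14902438 whole fragments per library, of which rRNA-related loci took 48.0% and 37.9% in shNC and 26.3% and 28.2% in shNAT10. The loci in this set are not listed here and may include transcripts other than rRNA. The difference between the groups is therefore not read as carry-over of rRNA alone. Scaling to the same FPKM total, given below, leaves out this same set. *Nat10* itself was at 7.79 and 5.42 FPKM with shNC and at 2.95 and 3.04 FPKM with shNAT10, so the groups did not overlap (log2 fold change -1.09 ± 0.21, limma adjusted p = 0.123). Its fold change was -1.07 without shNAT10 replicate 1 and -1.11 without shNAT10 replicate 2, and neither then passed the threshold. Of 11 germline stem cell markers, 5 (*Dazl*, *Pou5f1*, *Dppa3*, *Tfap2c* and *Fut4*) were at 0 in every library, and *Ddx4*, the defining germ cell helicase, was at 0 in 3 libraries and at 0.0529 FPKM in shNAT10 replicate 1. *Prdm1*, at 0.0916 and 0.0906 against 0.0857 and 0.0702 FPKM, and *Zbtb16*, at 0.338 and 0.367 against 0.467 and 0.593 FPKM, were low, whereas *Ifitm3* (Fragilis), which is not restricted to germ cells, was expressed at 9.29 and 22.2 against 27.1 and 33.6 FPKM. The leukocyte markers *Ptprc*, at 15.5 and 15.4 against 15.3 and 15.3 FPKM, and *Coro1a*, at 137 and 164 against 142 and 150.4 FPKM, and the mast cell protease *Cpa3*, at 245 and 262 against 272 and 267 FPKM, were expressed, while the mast cell markers *Fcer1a* and *Tpsb2* were at 0 in every library. Most germline markers, *Ddx4* among them, were thus at or near 0 while leukocyte markers were expressed, which goes against the label, and the cells are called FGSCs here only as the labels do. The study, for its part, reports RT-PCR of *Oct4*, *Ddx4*, *Fragilis* and *Blimp1* and staining of the DDX4 and OCT4 proteins in its FGSCs. Whether those cultures were the ones sequenced here is not stated. In bulk RNA, fewer cells of a type and less RNA per cell cannot be told apart.

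All 34 members had a lower mean in shNAT10 than in shNC on the deposited scale, although 8 of them turned above 0 once the libraries were scaled to the same fragment total. Relative to the shNC mean, the shNAT10 mean ran from 34.6% for *Creld2* to 94.5% for *Ssr1*. A fold change over 1.2 with an unadjusted p of at most 0.05 in limma, the threshold used by the study, was met by 25 of 34 members, all lower, against 7.83% of the 20116 genes tested that were called lower and 8.41% that were called higher. No member (0 of 34) was called higher. For 31 members the higher shNAT10 library stayed under the lower shNC library, an arrangement that 24.1% of all genes tested showed. The exceptions were *Canx*, *Ssr1* and *Derl3*. The median log2 fold change was -0.63 over the members and 0.01 over all genes tested.

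Summed over the members, the shNC libraries held 4396 and 4987 FPKM and the shNAT10 libraries 2335 and 2467 FPKM. *Hspa5* supplied the largest single part of each sum, and by FPKM it ranked 8 among protein-coding genes in each shNC library, 47 in shNAT10 replicate 1 and 38 in shNAT10 replicate 2. After Benjamini-Hochberg adjustment over all genes, 1 member, *Creld2*, had an adjusted p under 0.05 in limma, against 0.104% of all genes tested that were so and lower. That count was 0 with each library left out, with pseudocounts of 1 and 0.01, with no filter, with no trend, with the replicate block and with the same fragment total. Applied to the recovered fragments, limma-voom, which weights each gene by its depth, gave 23 members an adjusted p under 0.05, all lower, against 3.97% of the 18425 genes it tested that were so and lower. With 2 libraries against 2, an exact two-sided permutation test cannot go below 0.3333, so no single member can pass on its own by that test.

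The number of members called was 14 without shNAT10 replicate 1, 15 without shNAT10 replicate 2, 21 without shNC replicate 1 and 24 without shNC replicate 2, against 4.47%, 5.01%, 8.25% and 6.92% of all genes called lower in those fits, where the lone library is assumed to vary like the other group. All 34 fold changes stayed below 0 in each of these 4 fits, and 11 of the 25 called members were called in all 4. Scaling to the same fragment total over all genes, rRNA-related loci included, moved the median of all genes to 0.39 on the log2 scale and left 11 members called lower and 0 higher, against 1.55% of all genes called lower. On that scale all 34 members still lay below the median of all genes, with a member median 0.61 under it. Over all genes the calls were then 312 lower and 5290 higher, in place of 1576 lower and 1691 higher, and with the same FPKM total outside the rRNA-related loci they were 1137 lower and 2144 higher.

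**Figure D1:**
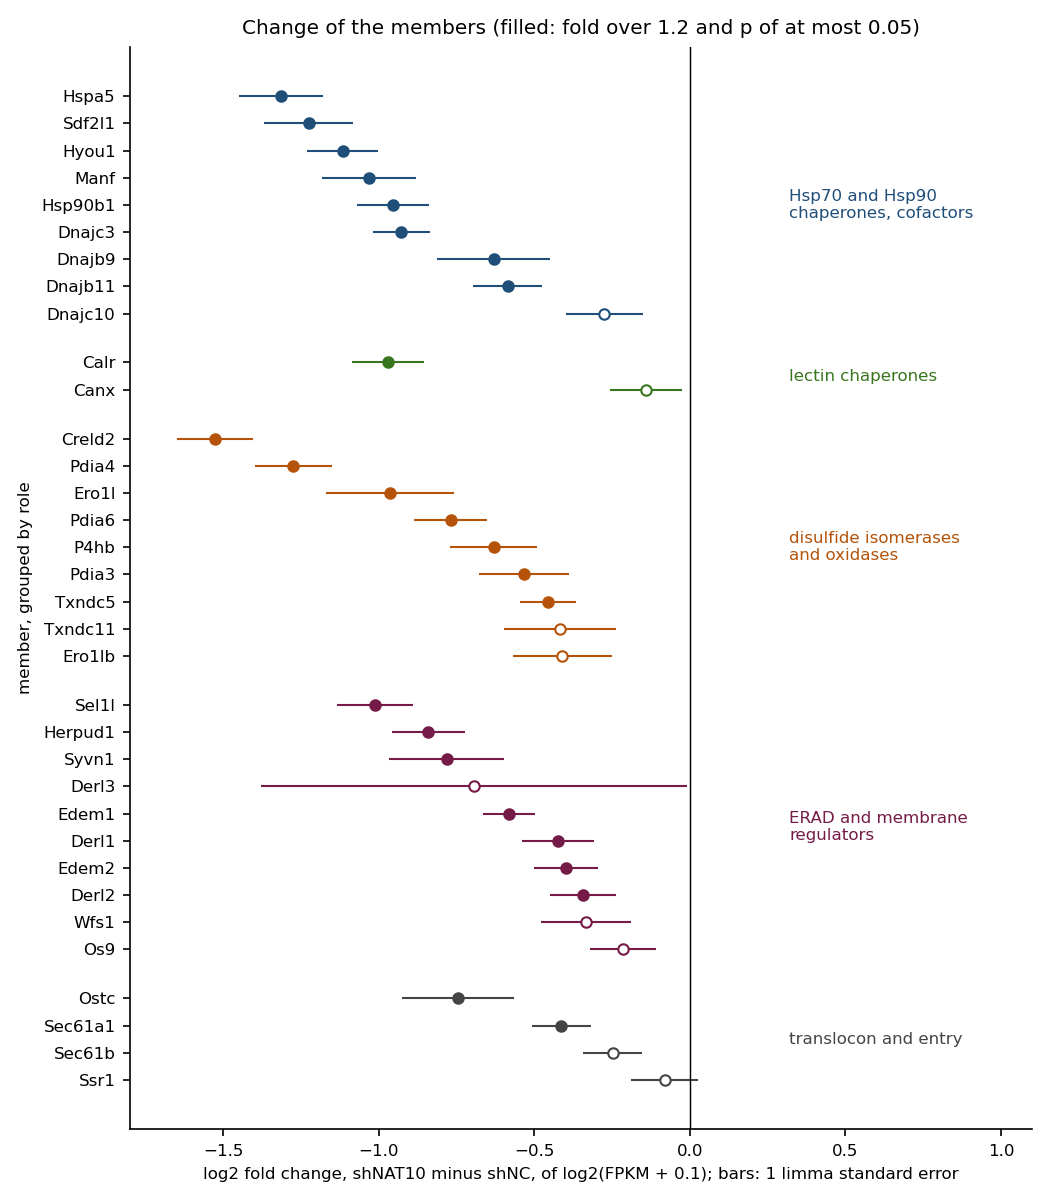
Each row is 1 of the 34 members, grouped by role; the x axis is the log2 fold change of FPKM + 0.1, shNAT10 minus shNC, with bars of 1 limma standard error, and filled points passed a fold over 1.2 with p of at most 0.05. The 25 filled points run from -1.53 (*Creld2*) to -0.34 (*Derl2*), and the 9 open ones include *Canx* at -0.14 and *Ssr1* at -0.081; scaling to equal fragment totals would move 8 members above 0.

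Many ER chaperone genes carry a known control element, the ER stress element (ERSE), which is bound by NF-Y at one end and by ATF6 or XBP1 at the other. It was searched as CCAAT, 9 bases, CCACG, on both strands, in RefSeq promoters of GRCm38.p6 that run from 250 bases before to 50 bases after the start site. Of the 34 members, 29 were found in that promoter table by symbol or synonym, and *Hyou1*, *Manf*, *Derl1*, *Sec61a1* and *Ostc* were not. ERSE was present in 10 of the 29, or 34.5%, against 37 of 27025 genes with a promoter, or 0.137%. ER chaperone genes are known carriers of this element, so the excess follows at least in part from the choice of members. It is no result of these libraries. The related ERSE-II, ATTGG, 1 base, CCACG, was present in *Herpud1* and *Dnajb11*, against 0.0444% of all genes. The UPR element TGACGTGG was present in *Txndc5* and *Txndc11*, 6.90% of the 29, against 0.714% of all genes and 5.88% of 85 other secretory pathway genes. Such a match is a description of the letters and not a measured binding site. The elements of *Hspa5*, *Hsp90b1*, *Creld2* and other members are shown because these genes span the range from the lowest fold change to no call. They read 5′ to 3′ along the gene, with the 5-base boxes in capitals and 5 bases of flank, and the boxes appear as CGTGG and ATTGG where the element lies on the opposite strand.
Creld2, chr15:88819515-88819543, plus strand: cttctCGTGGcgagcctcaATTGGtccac
Hspa5, chr2:34772020-34772048, plus strand: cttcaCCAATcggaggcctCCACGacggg
Calr, chr8:84847070-84847098, minus strand: caacgCGTGGtcgaccctcATTGGcccat
Hsp90b1, chr10:86705633-86705661, minus strand: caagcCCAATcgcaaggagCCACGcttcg
Hsp90b1, chr10:86705528-86705556, minus strand: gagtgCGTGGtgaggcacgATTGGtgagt
Dnajc3, chr14:118937822-118937850, plus strand: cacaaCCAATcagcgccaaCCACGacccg
Syvn1, chr19:6046527-6046555, plus strand: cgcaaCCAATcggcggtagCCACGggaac
Pdia6, chr12:17266486-17266514, plus strand: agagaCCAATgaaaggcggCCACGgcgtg
Canx, chr11:50325795-50325823, minus strand: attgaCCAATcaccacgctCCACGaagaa
Herpud1, chr8:94386372-94386392, plus strand: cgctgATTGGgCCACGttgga
*Hsp90b1* was the only one of these genes with more than 1 element. Counted from the start site at 0, the elements of all 12 genes lay between position -212 (*Hsp90b1*) and position 17 (*Dnajb11*). By GENCODE M21, *Hspa5* begins upstream of its RefSeq start site, so its element lies inside the annotated span of the gene. For 10 of the 12 genes, bases just after the RefSeq start were found near the start of an M21 transcript. Elements in *Creld2*, *Calr*, *Ero1lb*, *Derl3* and the nearer one of *Hsp90b1* lay on the strand opposite to the gene.

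Among the 12 members with ERSE or ERSE-II, 9 were called lower and the median log2 fold change was -0.81. Among the 17 matched members without either, 11 were called lower and the median was -0.46. The 5 members without a promoter in the table, whose elements are unknown, were all called lower with a median of -0.75. The ranges of both sets overlapped widely, from -1.53 to -0.14 with an element and from -1.28 to -0.081 without, and the difference was not tested. The element was not shared by every called member. *Canx*, *Ero1lb* and *Derl3* carry it and were not called, whereas *Pdia4* and *Sdf2l1* lack it within these windows and had log2 fold changes of -1.28 and -1.23. Among 85 other secretory pathway genes with a promoter, 0 had ERSE and 1, *Krtcap2*, had ERSE-II.

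**Figure D2:**
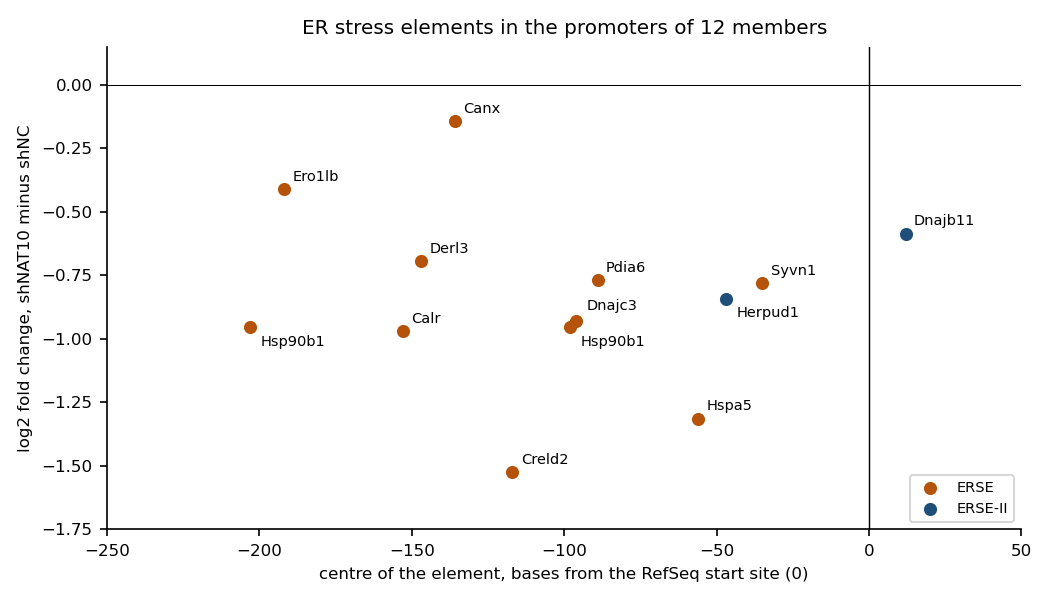
Each point is 1 ERSE (orange) or ERSE-II (blue) in the promoter of a member, placed by the distance of its centre from the RefSeq start site (x axis, bases) and by the log2 fold change of its gene, shNAT10 minus shNC (y axis). The points of the 12 genes lie between -1.53 and -0.14, with no clear order along the promoter.

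The Hsp70 and Hsp90 chaperones with their cofactors had the lowest median of the 5 role groups, a log2 fold change of -0.95, with 8 of 9 called lower. *Hspa5* (ENSMUSG00000026864, chr2:34771970-34777547 in GRCm38), which encodes BiP, the main Hsp70 of the ER lumen, was at 1318 and 1501 FPKM with shNC and at 529 and 604 FPKM with shNAT10. The groups were far apart, with the shNAT10 mean at 40.2% of the shNC mean (log2 fold change -1.32 ± 0.13, limma adjusted p = 0.0518). *Hsp90b1* (ENSMUSG00000020048, chr10:86690209-86705509), which encodes GRP94, the Hsp90 of the ER, was at 304 and 355 FPKM with shNC and at 176 and 163 FPKM with shNAT10, again without overlap (log2 fold change -0.95 ± 0.12, limma adjusted p = 0.0697). The other gene with the largest overlap covered 10.3% of the exon bases of *Hsp90b1*, so part of its fragments could belong to other genes. *Hyou1* (ENSMUSG00000032115, chr9:44379490-44392369), which encodes GRP170, an Hsp70-like protein that exchanges the nucleotide of BiP, was at 119 and 101 FPKM with shNC and at 48.6 and 52.7 FPKM with shNAT10 (log2 fold change -1.12 ± 0.11, limma adjusted p = 0.0507). The study looked for mRNAs with less *Gm26917* binding that were also lower in shNAT10, with RT-qPCR beside it, and shows *Hyou1* among these partners. These libraries may have served that screen, so the decline of *Hyou1* is not counted as independent evidence here. Without *Hyou1*, 24 of 33 members were called lower.

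The partners of BiP were lower to different degrees. *Sdf2l1*, which encodes a cofactor of the J-protein ERdj3, was at 441 and 551 FPKM with shNC and at 201 and 221 FPKM with shNAT10 (log2 fold change -1.23 ± 0.14, limma adjusted p = 0.066). *Dnajc3*, encoding the J protein p58IPK, was at 61.6 and 67.1 FPKM with shNC and at 32.6 and 34.8 FPKM with shNAT10 (log2 fold change -0.93 ± 0.091, limma adjusted p = 0.0507). *Manf*, a secreted ER protein that binds BiP, was at 24.9 and 31.3 FPKM with shNC and at 12.7 and 14.6 FPKM with shNAT10 (log2 fold change -1.03 ± 0.15, limma adjusted p = 0.0863). In these 3 genes both shNAT10 libraries lay well under either shNC library. The J proteins *Dnajb9* (ERdj4), at 31.1 and 33.1 against 17.4 and 24.5 FPKM, and *Dnajb11* (ERdj3), at 14.9 and 16.8 against 10.1 and 10.9 FPKM, were also called lower, with log2 fold changes of -0.63 and -0.59. *Dnajc10* (ERdj5), a reductase that acts in ERAD, was not called, at 27.5 and 24.6 against 23.3 and 19.8 FPKM, although its groups did not overlap (log2 fold change -0.28). *Dnajb9* was no longer called without shNC replicate 1 (-0.68) or shNC replicate 2 (-0.59) and stayed called at -0.39 without shNAT10 replicate 1 and at -0.88 without shNAT10 replicate 2. *Dnajc10* was at -0.16 without shNAT10 replicate 2, and *Dnajb11* (-0.53) and *Manf* (-0.93) were no longer called without shNAT10 replicate 1.

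**Figure D3:**
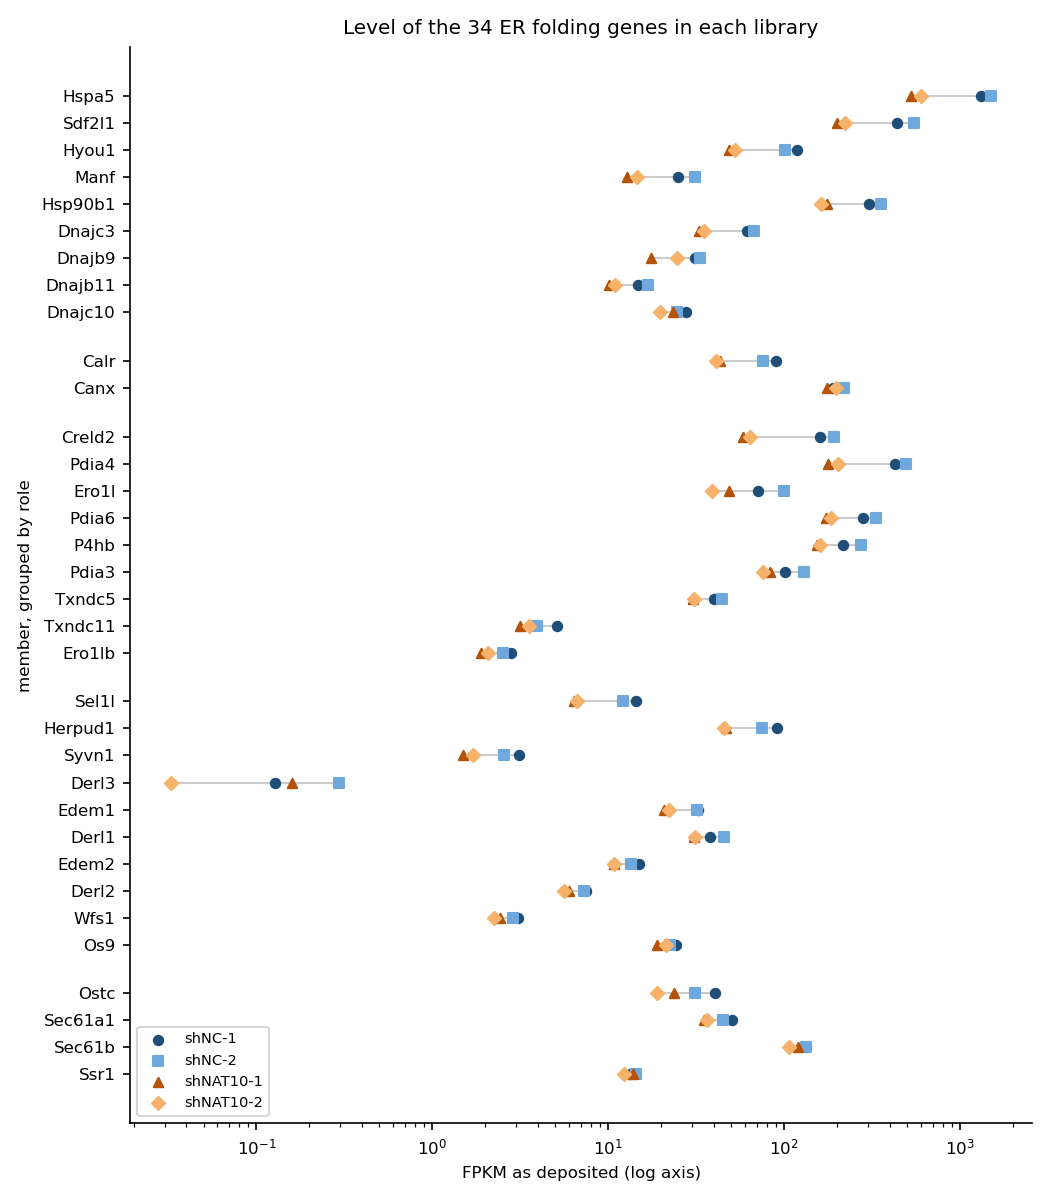
Each row is a member, grouped by role, and each point its FPKM in 1 library on a log axis, with shNC in blue and shNAT10 in orange. *Hspa5* runs from 529 to 1501 FPKM with a clear gap between the groups, whereas the 4 points of *Canx*, *Ssr1* and *Derl3* are mixed.

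Of the 2 lectin chaperones, 1 was called lower. *Calr* (ENSMUSG00000003814, chr8:84841850-84846934), calreticulin, the soluble lectin of the ER lumen, was at 90.4 and 75.7 FPKM with shNC and at 43.3 and 41.02 FPKM with shNAT10 (log2 fold change -0.97 ± 0.12, limma adjusted p = 0.0692). Its membrane-bound counterpart *Canx*, calnexin, was at 191 and 220.3 FPKM with shNC and at 176 and 196 FPKM with shNAT10, so its groups overlapped and it was not called (log2 fold change -0.14 ± 0.12, limma adjusted p = 0.589). With 1 library left out the fold change of *Canx* ran from -0.24 to -0.038. The ratio of *Calr* to *Canx* within a library, which no single factor per library can change, was 0.474 and 0.343 in shNC and 0.246 and 0.209 in shNAT10. The ratios of the groups did not overlap, with an exact permutation p of 0.3333, the smallest that 2 against 2 can give.

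The disulfide isomerases and oxidases held the member with the lowest fold change, and 7 of 9 were called lower with a median log2 fold change of -0.63. *Creld2* (ENSMUSG00000023272, chr15:88819646-88826683), which encodes an ER protein with isomerase activity, was at 160.2 and 193 FPKM with shNC and at 58.3 and 63.7 FPKM with shNAT10 (log2 fold change -1.53 ± 0.12, limma adjusted p = 0.0443). Its adjusted p was 0.054 and 0.058 with pseudocounts of 1 and 0.01, and 0.17 without the trend. *Pdia4* (ENSMUSG00000025823, chr6:47796141-47813430), which encodes the isomerase ERp72, was at 428 and 491 FPKM with shNC and at 177 and 203 FPKM with shNAT10 (log2 fold change -1.28 ± 0.12, limma adjusted p = 0.0507). In both genes the groups stood far apart. The other classical isomerases had fold changes closer to 0. *Pdia6*, which encodes an isomerase that binds BiP, was at 281 and 333 FPKM with shNC and at 174 and 185 FPKM with shNAT10 (log2 fold change -0.77 ± 0.12, limma adjusted p = 0.0927). *P4hb*, protein disulfide isomerase itself, was at 216 and 273 FPKM with shNC and at 153 and 161 FPKM with shNAT10 (log2 fold change -0.63 ± 0.14, limma adjusted p = 0.15). *Pdia3*, the isomerase that works with the lectins, was at 102 and 130.2 FPKM with shNC and at 82.7 and 76.2 FPKM with shNAT10 (log2 fold change -0.53 ± 0.15, limma adjusted p = 0.207). In each the groups were separate, and the shNC libraries also differed from each other, with the higher value in shNC replicate 2.

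*Txndc5*, an isomerase with several thioredoxin domains, was at 39.9 and 44.1 FPKM with shNC and at 30.5 and 30.6 FPKM with shNAT10 (log2 fold change -0.46). The oxidase *Ero1l* (Ero1 alpha) was at 71.5 and 100.4 FPKM with shNC and at 48.5 and 38.8 FPKM with shNAT10 (log2 fold change -0.96 ± 0.21, limma adjusted p = 0.146), and both of its groups had a wide spread. *Ero1lb* (Ero1 beta), at 2.82 and 2.52 against 1.89 and 2.07 FPKM, and the thioredoxin-related membrane protein *Txndc11*, at 5.14 and 3.95 against 3.15 and 3.55 FPKM, were low and were not called, with log2 fold changes of -0.41 and -0.42, although neither had overlapping groups. Without shNAT10 replicate 1 the calls of *Pdia3* (-0.59), *Pdia6* (-0.72), *P4hb* (-0.60), *Txndc5* (-0.45) and *Ero1l* (-1.13) ended, as did those of *Pdia3* (-0.47), *P4hb* (-0.67), *Txndc5* (-0.46) and *Ero1l* (-0.80) without shNAT10 replicate 2. Without shNC replicate 2 *Ero1l* (-0.72) lost its call, *Pdia3* (-0.36) kept its own and *Txndc11* (-0.60) gained one, whereas *Txndc11* was at -0.23 without shNC replicate 1.

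In the ERAD group, 7 of 10 members were called lower, with a median log2 fold change of -0.50. The ubiquitin ligase Hrd1 sits at the centre of this pathway. *Sel1l* (ENSMUSG00000020964, chr12:91806043-91849157), its adaptor in the membrane, was at 14.3 and 12.2 FPKM with shNC and at 6.38 and 6.61 FPKM with shNAT10 (log2 fold change -1.01 ± 0.12, limma adjusted p = 0.0692). *Syvn1*, the gene of Hrd1 itself, was at 3.12 and 2.56 FPKM with shNC and at 1.503 and 1.71 FPKM with shNAT10 (log2 fold change -0.78 ± 0.18, limma adjusted p = 0.171). *Herpud1* (ENSMUSG00000031770, chr8:94386438-94395377), which encodes Herp, a membrane protein that assembles with Hrd1, was at 90.7 and 75.2 FPKM with shNC and at 46.5 and 45.6 FPKM with shNAT10 (log2 fold change -0.84 ± 0.12, limma adjusted p = 0.0837). In these 3 genes both shNAT10 libraries were below both shNC libraries. *Syvn1* rested on far fewer fragments than the others, with 178 and 148 in shNC and 92 and 127 in shNAT10.

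The genes that select and move the ERAD substrates had fold changes closer to 0. *Edem1*, a lectin that removes mannose from misfolded glycoproteins, was at 32.2 and 31.97 FPKM with shNC and at 20.8 and 22.03 FPKM with shNAT10 (log2 fold change -0.58 ± 0.083, limma adjusted p = 0.0842). Its relative *Edem2* was at 15.05 and 13.4 against 10.8 and 10.8 FPKM (log2 fold change -0.40). The derlins *Derl1*, at 38.02 and 45.8 against 30.8 and 31.3 FPKM, and *Derl2*, at 7.48 and 7.28 against 5.97 and 5.63 FPKM, which form part of the export channel, had log2 fold changes of -0.42 and -0.34. All 4 of these genes were called lower without overlap of the groups. *Derl3* was close to absent, at 0.128 and 0.296 against 0.1599 and 0.0327 FPKM, or 3 and 7 fragments in shNC and 4 and 1 in shNAT10, so no difference could be resolved at this depth. The lectin *Os9*, at 24.4 and 22.4 against 19.03 and 21.3 FPKM, and *Wfs1*, a membrane protein that restrains ATF6, at 3.08 and 2.87 against 2.42 and 2.26 FPKM, were not called, with log2 fold changes of -0.22 and -0.33. *Os9* ran from -0.29 to -0.14 with 1 library left out. Calls ended for *Edem2* (-0.40) and *Derl1* (-0.41) without shNAT10 replicate 1 and for *Edem2* (-0.40), *Derl1* (-0.43) and *Derl2* (-0.30) without shNAT10 replicate 2. The call of *Syvn1* ended without shNC replicate 1 (-0.64), shNAT10 replicate 1 (-0.69) or shNAT10 replicate 2 (-0.87), and that of *Derl2* without shNC replicate 1 (-0.32). With the same fragment total *Edem2* (0.0061), *Derl2* (0.059), *Os9* (0.19) and *Wfs1* (0.058) turned above 0, and the median of the ERAD group was -0.096.

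The translocon and entry genes had the role group median closest to 0, with 2 of 4 called lower and a median log2 fold change of -0.33, which turned to 0.076 when libraries were scaled to the same fragment total. *Ostc*, a subunit of the oligosaccharyltransferase that works at the translocon, was at 40.4 and 31.1 FPKM with shNC and at 23.6 and 18.9 FPKM with shNAT10 (log2 fold change -0.75 ± 0.18, limma adjusted p = 0.178). *Sec61a1* (ENSMUSG00000030082, chr6:88503579-88518905), the pore of the channel, was at 50.4 and 44.9 FPKM with shNC and at 35.04 and 36.4 FPKM with shNAT10 (log2 fold change -0.41 ± 0.095, limma adjusted p = 0.163), and 8.16% of its exon bases lie under an antisense gene. Both had separate groups. *Sec61b*, the small beta subunit of the channel, was at 134 and 134 against 119.7 and 106 FPKM and was not called (log2 fold change -0.25). *Ssr1*, a subunit of the translocon-associated protein complex, was at 13.2 and 14.4 against 13.8 and 12.3 FPKM, with groups that overlapped (log2 fold change -0.081). Its fold change ran from -0.16 to -0.0036 with 1 library left out. The calls of *Sec61a1* (-0.39) and *Ostc* (-0.91) ended without shNAT10 replicate 1, and those of *Sec61a1* (-0.44) and *Ostc* (-0.58) ended without shNAT10 replicate 2. *Ostc* (-0.56) also lost its call without shNC replicate 1, and *Sec61b* (-0.33) gained one without shNAT10 replicate 1 and was at -0.16 without shNAT10 replicate 2.

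Members with higher expression tended to have the more negative fold change (Spearman's rho = -0.43 over 34 members of the same 4 libraries, given as a description). Their mean over the 4 libraries ran from 0.154 FPKM for *Derl3* to 988 FPKM for *Hspa5*, with 27 members at 10 FPKM or more and 9 at 100 FPKM or more. The 7 called members that fell at least 2-fold by mean FPKM were *Hspa5*, *Hyou1*, *Sdf2l1*, *Manf*, *Pdia4*, *Creld2* and *Sel1l*. *Canx* and *Sec61b* were both above 100 FPKM in every library and were not called. The shNC libraries were not identical, with a median log2 difference of shNC replicate 2 minus shNC replicate 1 of 0.11 over the members and 0.00 over all genes tested. That difference was smaller than the median difference between the groups.

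Next, the other genes of the secretory pathway were examined, in 8 lists that hold no member. Of 104 such genes tested, 34 were called lower and 2 higher, with a median log2 fold change of -0.23, and 20 were called lower without either shNAT10 replicate 1 or shNAT10 replicate 2. With the same fragment total for each library the calls were 5 lower and 18 higher. Over all 20154 genes tested on that scale they were 312 lower and 5290 higher, around a median log2 fold change of 0.39. The fold changes and calls given for these lists are those of the deposited scale. The sensors and factors of the UPR stood closest to the members, with 8 of 12 called lower and a median of -0.45. *Ddit3*, which encodes CHOP, the factor linked to death under ER stress, was at 39.5 and 48.4 FPKM with shNC and at 16.9 and 17.6 FPKM with shNAT10 (log2 fold change -1.34 ± 0.13, limma adjusted p = 0.0489). *Atf3*, a stress factor induced through ATF4, was at 7.63 and 7.74 against 3.403 and 3.604 FPKM (log2 fold change -1.11), and *Ppp1r15a* (GADD34), the phosphatase subunit that restores translation, was at 31.3 and 26.6 against 11.9 and 15.2 FPKM (log2 fold change -1.09). These 3 genes were lower in both shNAT10 libraries than in either shNC library.

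Of the transcription factors that act in the UPR, *Xbp1*, *Atf6* and *Atf4* were called lower, with fold changes closer to 0 than that of *Hspa5*. *Xbp1*, the target of IRE1, was at 96.6 and 98.3 FPKM with shNC and at 71.3 and 70.2 FPKM with shNAT10 (log2 fold change -0.46 ± 0.076, limma adjusted p = 0.103). *Atf6* was at 17.97 and 17.6 FPKM with shNC and at 13.2 and 12.3 FPKM with shNAT10 (log2 fold change -0.48 ± 0.092, limma adjusted p = 0.124), and *Atf4*, whose translation PERK promotes, was at 221 and 201 FPKM with shNC and at 144 and 130.2 FPKM with shNAT10 (log2 fold change -0.62 ± 0.10, limma adjusted p = 0.103). All 3 had separate groups, and none reached an adjusted p under 0.05. *Atf6b*, a relative of *Atf6*, was at 18.7 and 15.8 against 16.99 and 16.1 FPKM with overlapping groups (log2 fold change -0.055), and *Creb3l2*, at 0.9703 and 1.08 against 0.853 and 0.887 FPKM, was not called either (log2 fold change -0.21). Gene-level FPKM does not show the splicing of *Xbp1* or the cleavage of ATF6, so the activity of the UPR was not measured. The sensors *Ern1* (IRE1 alpha), at 2.47 and 2.75 against 2.11 and 1.93 FPKM, and *Eif2ak3* (PERK), at 4.96 and 4.12 against 3.12 and 4.23 FPKM, were not called, with log2 fold changes of -0.35 and -0.31. With 1 library left out *Eif2ak3* ran from -0.52 to -0.094 and *Atf6b* from -0.18 to 0.066.

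In the remaining lists the medians were closer to 0, and single genes stood out. Of 18 other translocon, signal recognition and signal peptidase genes, 7 were called lower, with a median log2 fold change of -0.28. They included the signal peptidase subunits *Sec11a*, at 11.96 and 11.9 against 8.01 and 6.97 FPKM (log2 fold change -0.67), *Sec11c* (log2 fold change -0.37) and *Spcs3* (log2 fold change -0.33), and *Ssr3* of the translocon-associated protein complex (log2 fold change -0.43). Of 10 oligosaccharyltransferase genes 4 were called lower, with a median of -0.25, namely *Krtcap2* (log2 fold change -0.68), *Stt3a* (log2 fold change -0.39), *Magt1* (log2 fold change -0.37) and *Rpn1* (log2 fold change -0.37). Of 12 other cochaperones and prolyl isomerases 4 were called lower, with a median of -0.12, including *Hspa13* (log2 fold change -0.61), *Cnpy2* (log2 fold change -0.39) and the cyclophilin *Ppib*, at 123 and 149 against 91.8 and 94.2 FPKM (log2 fold change -0.54). The remaining called gene, *Sil1*, had the lowest log2 fold change of that list, -0.97, at 4.12 and 3.83 against 2.02 and 1.92 FPKM. Of 19 other ERAD genes tested 5 were called lower, with a median of -0.17. The selenoproteins *Selenok*, at 43.3 and 52.03 against 22.3 and 25.5 FPKM (log2 fold change -0.99), and *Selenos*, at 99.3 and 114 against 56.7 and 61.8 FPKM (log2 fold change -0.84), had the lowest fold changes of the called genes of this list at a mean of 5 FPKM or more, followed by *Ufd1* (log2 fold change -0.43) and the ubiquitin-conjugating enzyme *Ube2j1* (log2 fold change -0.31). Of 14 COPII and ER exit genes 4 were called lower, with a median of -0.18, namely the coat subunits *Sec24d* (log2 fold change -0.61), *Sec23a* (log2 fold change -0.59) and *Sec23b* (log2 fold change -0.32) and the retrieval receptor *Kdelr2* (log2 fold change -0.32). Without shNAT10 replicate 1 the calls of *Ssr3* (-0.44), *Sec11c* (-0.27), *Spcs3* (-0.37), *Magt1* (-0.42), *Rpn1* (-0.30), *Ppib* (-0.52), *Ube2j1* (-0.29), *Sec24d* (-0.61), *Sec23a* (-0.60), *Sec23b* (-0.35) and *Kdelr2* (-0.31) ended. Without shNAT10 replicate 2 those of *Ssr3* (-0.42), *Spcs3* (-0.28), *Stt3a* (-0.24), *Magt1* (-0.32), *Rpn1* (-0.44), *Hspa13* (-0.51), *Ppib* (-0.56), *Ube2j1* (-0.32), *Sec24d* (-0.60), *Sec23a* (-0.57) and *Sec23b* (-0.29) ended. The calls of *Sec11c* (-0.42), *Krtcap2* (-0.60), *Stt3a* (-0.39), *Hspa13* (-0.52), *Ube2j1* (-0.24) and *Sec23b* (-0.28) ended without shNC replicate 1, and those of *Sec11c* (-0.31), *Spcs3* (-0.21), *Stt3a* (-0.39), *Magt1* (-0.27) and *Rpn1* (-0.29) ended without shNC replicate 2, where *Sec23a* stayed called at -0.37. Of the genes named in these lists, *Sec11a*, *Cnpy2*, *Sil1*, *Selenok*, *Selenos* and *Ufd1* were called in each of these fits.

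The genes of glycan trimming and the calnexin cycle had a median of 0.074, with 1 of 8 called lower and 1 higher. The cargo receptor *Lman1* was the lower one (log2 fold change -0.36) and *Uggt2*, a glucosyltransferase that senses folding, was the higher one at 1.36 and 1.17 against 1.92 and 1.88 FPKM (log2 fold change 0.55). The other isomerases and oxidases had a median of -0.18 over 11 tested genes, and here *Tmx4* was the lower one (log2 fold change -0.39). *Gpx8*, a peroxidase of the ER membrane, was the higher one, at 19.4 and 20.4 FPKM with shNC and at 35.5 and 37.4 FPKM with shNAT10 (log2 fold change 0.87 ± 0.085, limma adjusted p = 0.0507), and its groups were far apart in the direction opposite to the members. *Tmx4* was called in 0 of the 4 fits with a library left out, where it ran from -0.45 to -0.32. *Uggt2* stayed called without shNC replicate 1 alone, and its call ended without shNC replicate 2 (0.46), shNAT10 replicate 1 (0.54) or shNAT10 replicate 2 (0.57). *Lman1* stayed called without shNC replicate 2 alone, and its call ended without shNC replicate 1 (-0.29), shNAT10 replicate 1 (-0.43) or shNAT10 replicate 2 (-0.29). *Uggt2*, *Tmx4* and *Sil1* fell outside the rule for named genes and were chosen after seeing their values.

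**Figure D4:**
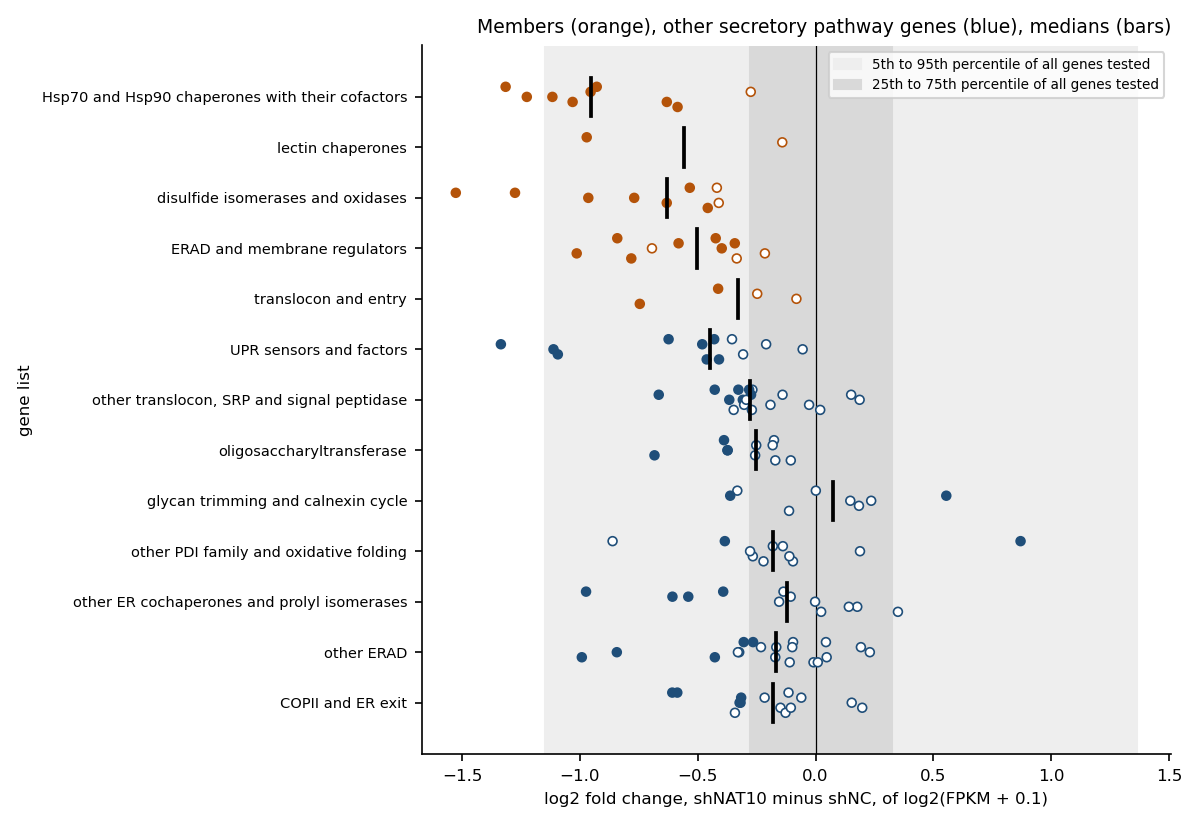
The x axis is the log2 fold change, shNAT10 minus shNC, of each gene in the 5 role groups of members (orange) and the 8 lists of other secretory pathway genes (blue); filled points passed the threshold, black bars are medians, and the grey bands run from the 25th to the 75th and from the 5th to the 95th percentile of all genes tested. The role group medians run from -0.95 to -0.33 and those of the other lists from -0.45 to 0.074; with equal fragment totals the median of the translocon group would be 0.076.

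Ratios between related genes within a library were compared next, since a single scaling factor per library leaves them as they are. The 10 pairs were chosen after the values had been seen. *Sdf2l1* was 19.4 and 19.6 times its constitutive relative *Sdf2* in shNC and 7.80 and 8.95 times in shNAT10. *Herpud1* was 45.9 and 37.4 times *Herpud2* in shNC and 21.4 and 18.9 times in shNAT10. *Sec61a1* was 19.5 and 16.7 times its paralog *Sec61a2* in shNC and 11.6 and 12.7 times in shNAT10. In each of these pairs the other gene was not called lower, and the ratios of the groups did not overlap. Within the Hrd1 complex, *Sel1l* was at 0.586 and 0.545 times *Os9* in shNC and at 0.335 and 0.311 times in shNAT10. *Dnajc3* went from 2.24 and 2.73 to 1.40 and 1.76 times *Dnajc10*. The ratio of *Edem1* to *Edem2* was separate by a narrower margin, at 2.14 and 2.38 against 1.93 and 2.05. With 2 libraries against 2 no pair can pass an exact permutation test, and no share of other gene pairs with separate ratios was computed. The ratios of *Ero1l* to *Ero1lb* and of *Derl1* to *Derl2* overlapped, so a change within these pairs was not detectable here.

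**Figure D5:**
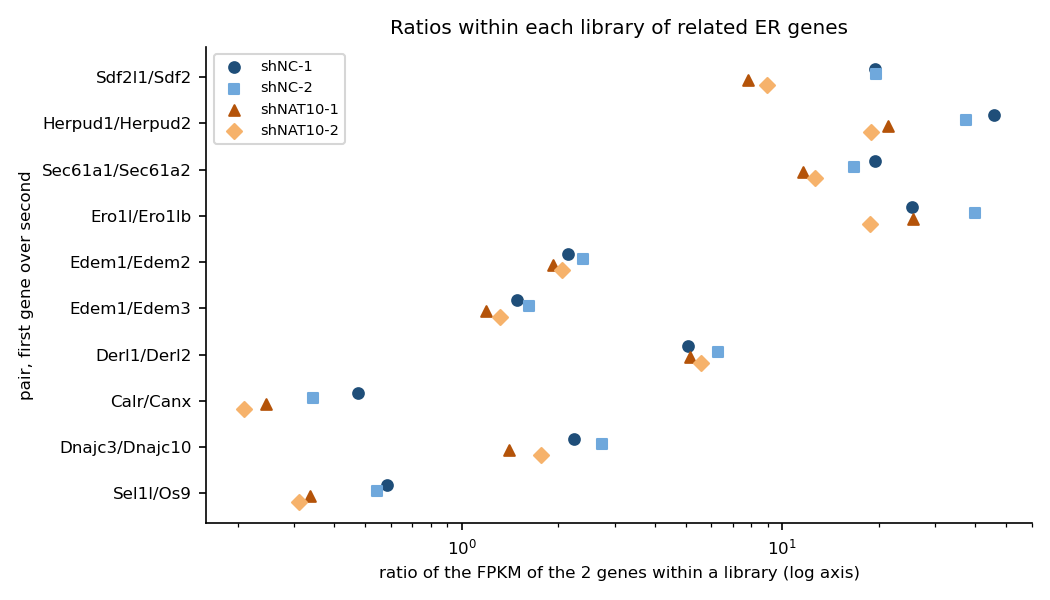
Each row is a pair of related ER genes and each point the ratio of their FPKM within 1 library, on a log axis, with shNC in blue and shNAT10 in orange. *Sdf2l1* over *Sdf2* drops from about 19.5 to between 7.80 and 8.95, while the points of *Ero1l* over *Ero1lb* and of *Derl1* over *Derl2* are mixed.

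Markers of other cells were read beside these results, because secretory cells are rich in ER chaperones. Of the plasma cell markers, *Jchain* was at 0 in every library, *Mzb1* was at 0.282 FPKM in shNC replicate 1 and at 0 in the others, and *Tnfrsf17* was at 0.104 FPKM in shNC replicate 1 and at 0 in the others. *Prdm1* and *Irf4* were below 0.1 FPKM in each library, while *Sdc1*, also on that list and the only one of its genes tested, was at 9.23 and 6.502 against 8.66 and 9.64 FPKM and was not called (log2 fold change 0.23). The fold change of *Sdc1* ran from -0.015 to 0.48 with 1 library left out. The sums over the 6 listed were 9.80 and 6.63 against 8.81 and 9.76 FPKM. Of 8 pan-leukocyte markers, 4 were called lower and 0 higher, and their sum was 481 and 529.8 FPKM with shNC against 399 and 417 FPKM with shNAT10. Of 7 mast cell markers tested, 4 were called lower and 1 higher, with sums of 431 and 459 against 421 and 408 FPKM over all 12 listed. Of 5 macrophage markers tested 2 were called lower, with sums of 64.7 and 70.3 against 49.4 and 53.7 FPKM over the 8 listed. Of 7 fibroblast markers tested 3 were called higher, with sums of 54.3 and 47.4 against 65.2 and 55.6 FPKM, and of 4 granulosa cell markers tested 0 were called, with sums of at most 4.40 FPKM. The 3 germline stem cell markers that could be tested were not called, and sums over all 11 were 10.03 and 22.8 against 27.95 and 34.5 FPKM, mostly *Ifitm3*. The part of these differences in the decline of the ER genes was not tested.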

How the data were processed

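Long RNA-seq libraries from FGSCs with control shRNA or *Nat10* shRNA were analysed, 2 per group, grouped by the titles in the labels. The submitters' processing notes name cutadapt, HISAT2, DESeq2 and mm10, and the program that assigned reads to genes is not given in the sources used here. The authors deposited FPKM for 53465 genes per library, and 26643 of these genes were at 0 in all libraries. Their second table, which adds their own fold changes and p-values, was not used. Columns of single libraries left out numbered 0.

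The 20116 genes whose mean FPKM reached 0.1 were tested on log2(FPKM + 0.1), two-sided, with limma 3.58.1 in R 4.3.3 (lmFit, eBayes with trend) and Benjamini-Hochberg adjustment over all of them. Fold changes on this scale understate the change of low genes. The threshold of a call was a fold over 1.2 with p, unadjusted, of at most 0.05. Fragments were recovered from FPKM and the exon lengths of GENCODE M21 (GRCm38), where 53360 genes matched, and about 96% of low values came out whole within 0.02. The recovered fragments covered counting error only, and 3 fragments were taken as the floor of a library. Promoters came from RefSeq (GRCm38.p6). Python 3.11.15, numpy 2.4.6, pandas 2.3.3 and matplotlib 3.10.9 served for the rest.

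The alternatives were pseudocounts of 1 and 0.01, other filters on low values, median-ratio, FPKM-total and quantile scaling, a replicate block, limma with no trend and each library left out in turn. Scaling to the fragment total and limma-voom on the recovered fragments were added after seeing the data. Members and lists were chosen with earlier results of these data known. Named were all members, the called genes of the other lists with the largest changes, at most 4 per list, at a mean FPKM of at least 5, and the main UPR factors. Protein sequences were not used here.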

Additional observations from a re-analysis of the deposited data

How the results depend on the processing

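The 25 members called became 19 to 26 under the planned pseudocounts, filters, scalings and models with all libraries (5.65% to 11.1% of all genes called lower), and of the alternatives added later 28 with limma-voom (9.91%) and 11 with the same fragment total (1.55%). Median-ratio rescaling changed nothing, since the deposited values already had factors of 1, and was no test. Leaving out 1 library gave 14 to 24 members called (4.47% to 8.25% of all genes), 20 to 31 other pathway genes called lower (34 with all libraries) and 1 to 3 called higher (2 with all), 0 members with an adjusted p under 0.05 by limma, Hsp70 and Hsp90 medians of -1.002 to -0.87, and a *Nat10* fold change of -1.35 to -0.83, not called without shNAT10 replicate 1 (-1.07) or replicate 2 (-1.11). The single member with an adjusted p under 0.05 became 0 with pseudocounts of 1 and 0.01, with no filter, with no trend, with the replicate block and with the same fragment total, 4 with the same FPKM total, 7 with quantile normalization, 11 at a mean FPKM of at least 1 and 23 with limma-voom. Same-numbered libraries did not deviate together (r = 0.0071 over genes), and the block gave 26 members called lower and 1 other pathway gene called higher. Without the trend 16 other pathway genes were called lower, and with the same FPKM total 4 were called higher. The ERAD median was -0.39 with a pseudocount of 1, and the lectin median was -0.48 with the same FPKM total and -0.59 with quantile normalization. With the same fragment total the member median was -0.22, and the role medians were -0.55 (Hsp70 and Hsp90), -0.15 (lectins), -0.22 (disulfide), -0.096 (ERAD) and 0.076 (translocon). Other pathway genes were then called lower in 5 cases and higher in 18, against 312 lower and 5290 higher of all 20154 genes tested. On that scale *Dnajc10* (0.13), *Canx* (0.27), *Edem2* (0.0061), *Derl2* (0.059), *Os9* (0.19), *Wfs1* (0.058), *Sec61b* (0.16) and *Ssr1* (0.32) turned above 0, none of them called. The cause of the other changes was not tested. Depth limited *Derl3* in particular, with at most 7 fragments per library.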
